A study of Mus musculus with 6 samples.

Results

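The genes described here encode the nuclear subunits of the mitochondrial respiratory chain and ATP synthase, together with the assembly factors that share their name prefixes. Members were the genes of the array whose single annotated symbol starts with Ndufa, Ndufb, Ndufc, Ndufs, Ndufv, Sdh, Uqcr, Cox4, Cox5, Cox6, Cox7, Cox8 or Atp5, each represented by the probe set with the highest mean over the 6 arrays. This gave 93 of the 19938 genes measured. By known role they are 34 subunits of complex I, 4 of complex II, 8 of complex III, 19 of complex IV, 17 of complex V and 11 assembly factors. The arrays came from bone marrow derived mast cells (BMMC) of C57BL/6J mice, either lacking the microRNA miR-155 (mir-155 KO, written KO) or wild type (WT), with 3 independent cultures and 3 arrays per genotype. Both genotypes were treated alike. Cells grew for 5 weeks with SCF at 1 ng/ml and IL-3 at 0.5 ng/ml, were loaded overnight with anti-DNP IgE at 0.2 µg/ml, and met the antigen DNP-HSA (20 ng/ml) for 1 h. No unstimulated culture was among them, so the values compare genotypes after stimulation and not the response to antigen. The age and sex of the mice, and whether each culture came from 1 mouse, were not given in the sources used here.

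The respiratory chain oxidises NADH and succinate in the inner mitochondrial membrane. Complexes I and II pass electrons to ubiquinone, complex III hands them to cytochrome c and complex IV to oxygen. Complexes I, III and IV pump protons, and complex V, the ATP synthase, uses the resulting gradient to make ATP. A few subunits are encoded by mitochondrial DNA and the rest by nuclear genes, many of which are known targets of the transcription factors NRF1 and GABP. Mast cells stimulated through the IgE receptor need ATP for granule release and mediator synthesis, and draw on both glycolysis and respiration.

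The sequences shown first are the microRNA that the KO cells lack and the promoters of 3 members whose genotypes did not overlap. In the mature 5p strand of miR-155 (mouse assembly GRCm38.p6, chr16:84714143-84714165, plus strand) the capitals mark the seed, bases 2 to 8, through which a microRNA pairs with its targets.

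mmu-miR-155-5p: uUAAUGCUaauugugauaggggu

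The promoters run from 250 bases before to 50 bases after the annotated start and were taken, like the microRNA, from RefSeq on GRCm38.p6. Ndufs8 (chr19:3912725-3913024, minus strand) and Ndufs7 (chr10:80249199-80249498, plus strand) encode neighbouring iron-sulphur subunits of complex I whose differences had opposite signs, and Sdha (chr13:74350191-74350490, minus strand) had the lowest p of complex II. Capitals mark matches on either strand to the NRF1 motif (GCGCA, any 1 base, GCGC) or to CCGGAAG, the core bound by GABP.

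Ndufs8: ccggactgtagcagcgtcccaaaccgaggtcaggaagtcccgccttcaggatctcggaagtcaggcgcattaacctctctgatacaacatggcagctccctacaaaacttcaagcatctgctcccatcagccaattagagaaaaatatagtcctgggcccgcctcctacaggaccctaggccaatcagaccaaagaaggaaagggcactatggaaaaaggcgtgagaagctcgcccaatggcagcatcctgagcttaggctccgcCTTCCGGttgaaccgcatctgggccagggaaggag
Ndufs7: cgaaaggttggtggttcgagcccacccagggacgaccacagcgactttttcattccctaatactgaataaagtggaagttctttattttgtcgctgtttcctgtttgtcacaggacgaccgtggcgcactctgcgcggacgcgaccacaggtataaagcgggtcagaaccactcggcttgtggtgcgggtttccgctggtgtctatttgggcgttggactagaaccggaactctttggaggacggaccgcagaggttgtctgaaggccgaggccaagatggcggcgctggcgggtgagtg
Sdha: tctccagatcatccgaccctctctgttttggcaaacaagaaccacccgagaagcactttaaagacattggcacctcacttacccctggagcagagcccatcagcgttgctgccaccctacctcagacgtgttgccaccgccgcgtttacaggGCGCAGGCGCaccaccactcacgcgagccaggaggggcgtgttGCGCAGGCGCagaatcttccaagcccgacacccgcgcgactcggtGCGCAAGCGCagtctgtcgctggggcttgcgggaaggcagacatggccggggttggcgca

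Sdha held 3 NRF1 matches and 0 GABP matches, Ndufs8 1 GABP match and 0 NRF1 matches, and Ndufs7 0 of either. Among the 77 members with a promoter in the table, 20 (26.0%) held the NRF1 motif and 21 (27.3%) the GABP core, against 5.19% and 9.93% of all 27025 genes with a promoter there. Such a match describes letters in this window and not binding. The 27025 genes were not limited to those measured on the arrays or chosen to match the members in expression level. The median difference between KO and WT was 0.00 for the 20 members with an NRF1 match (range -0.29 to 0.37) and 0.03 for the 57 without one (range -0.42 to 0.46), on the log2 scale. For the GABP core it was 0.04 in the 21 members with a match and 0.01 in the 56 without. The ranges with and without a match therefore overlapped almost wholly, and each held members on both sides of 0.

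On the arrays as a whole, Pearson correlations across genes were 0.992 to 0.996 among KO arrays, 0.994 to 0.995 among WT arrays and 0.983 to 0.993 between genotypes. The Mir155 probe set read 2.77, 2.91 and 2.90 in KO against 2.93, 2.88 and 3.17 in WT, below the array median and overlapping, so it gives no check of the deletion. KO replicate 1 differed from the other 5 arrays in DNA replication genes. Relative to the WT mean, their median stood at -1.10, -0.17 and 0.11 in KO replicates 1, 2 and 3. In WT replicates 1, 2 and 3 it stood at 0.04, -0.28 and 0.24. By limma 0 of 24 such genes passed, and 3 (12.5%) were at an unadjusted p under 0.05, against 12.7% of all genes. Of 9 mast cell markers measured, 8 lay above the upper quartile of every array, among them Fcer1a, Kit and Cpa3. Groups did not overlap for 17.2% of all genes and for 28.5% of those above the upper quartile on every array. Among the mast cell markers they did not overlap for 2 of the 9 (22.2%), both higher in KO. These were Hdc, by 0.84 (SE 0.28, adjusted p = 0.233 by limma), and Mcpt4, by 0.44 (SE 0.13, adjusted p = 0.174). All 5 neutrophil, 3 dendritic cell and 2 lymphocyte markers stayed less than 1 log2 unit above the array median on every array, as did 4 of 5 macrophage and monocyte markers (all but Cd68). Of 3 stromal markers Col1a1 lay higher (4.73 to 5.00), and of 2 erythroid and megakaryocyte markers Itga2b, which mast cells also express, lay above the upper quartile. The basophil markers Mcpt8 and Prss34 varied between arrays and are given beside the spread of the members. No gene of any marker list passed the test. In bulk cultures fewer cells of a type and less RNA per cell cannot be told apart.

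No member passed the test for a difference between miR-155 KO and WT mast cells. By limma, with Benjamini-Hochberg adjustment over all genes at a threshold of 0.05, 0 of 93 rose and 0 fell, with 0.170 (Cox7b) as the lowest adjusted p. Over all genes tested, 0.823% were called (0.507% higher and 0.316% lower in KO), so a count of 0 among 93 genes lies near the background. At an unadjusted p under 0.05 there were 10 members (10.8%), 8 higher and 2 lower in KO, against 12.7% of all genes. Without KO replicates 1, 2 and 3 that count was 6, 7 and 5. These are 6.45%, 7.53% and 5.38% of members, against 9.88%, 13% and 11.6% of all genes. Without WT replicates 1, 2 and 3 it was 7, 17 and 7. These are 7.53%, 18.3% and 7.53% of members, against 11.1%, 11.3% and 11.8% of all genes. The KO and WT arrays did not overlap for 17 members (18.3%), 9 higher and 8 lower in KO, against 17.2% of all genes. With all 6 arrays both shares are near those over all genes. Of the members 73 lay above the upper quartile on every array, as did 5132 of all genes. In that range 12.3% of members were at an unadjusted p under 0.05, against 23.8% of all such genes. Without overlap were 17.8% of these members and 28.5% of these genes. Both shares of the members were thus lower there, which was not tested.

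Differences were small throughout. They ran from -0.42 (Ndufv3) to 0.46 (Ndufa7) on the log2 scale, with a median of 0.02, against a median of -0.01 and a range of -1.62 to 3.97 over all genes. Of the 93 differences 53 were positive and 40 negative, and their median size without regard to sign was 0.08, against 0.09 over all genes. For 81 members (87.1%) the 95% interval of the difference lay wholly between -0.5 and 0.5, as it did for 82.3% of all genes. Such a difference is a change of less than 1.41-fold either way. Above the upper quartile on every array the shares were 86.3% of members and 73.8% of genes. The bound of 0.5 was chosen after the values were seen. The other 12 members, whose data leave room for a larger difference, were Ndufa7, Ndufa11, Ndufs5, Ndufs7, Ndufs8, Ndufv2 and Ndufv3 of complex I, Uqcr10 and Uqcr11 of complex III, Cox7b and Cox6b1 of complex IV and the assembly factor gene Sdhaf3.

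**Figure D1:**
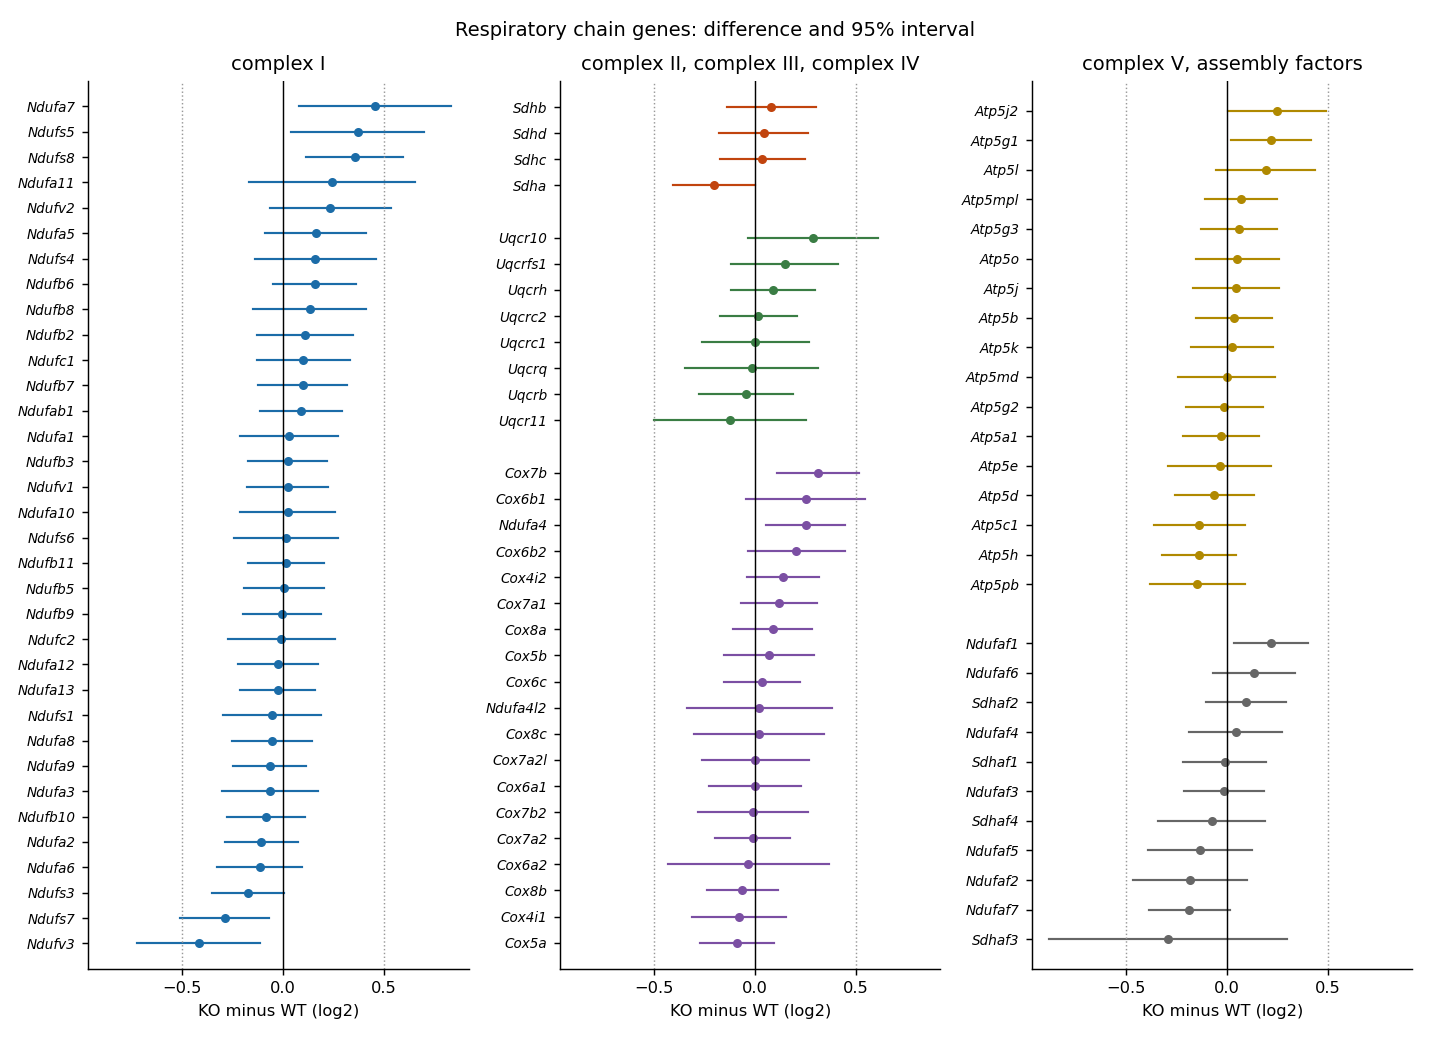
Difference between miR-155 KO and WT (log2, x axis) for each of the 93 members (y axis, by complex), with dots for the limma estimate and lines for its 95% interval, dotted lines at -0.5 and 0.5. Most intervals span 0, and 81 of 93 lie between the dotted lines.

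Complex I, the NADH dehydrogenase, had 34 members with a median difference of 0.02 (quartiles -0.06 and 0.13), and it held both ends of the range. Its core subunits, which carry the flavin and iron-sulphur clusters, did not share a direction: of 6 measured, 3 had positive and 3 negative differences. Ndufs8, whose product carries a pair of iron-sulphur clusters late in the chain, had log2 intensities of 7.30, 7.32 and 7.38 in the 3 KO cultures, against 6.86, 7.19 and 6.90 in the 3 WT cultures. All KO values lay above all WT values, by a mean of 0.36 (SE 0.11, 95% interval 0.12 to 0.59, adjusted p = 0.180). Ndufs7, whose product binds the last cluster before ubiquinone, had 7.76, 7.98 and 8.06 in KO against 8.22, 8.22 and 8.23 in WT. Here every KO value was lower, with a difference of -0.29 (SE 0.10, 95% interval -0.51 to -0.07, adjusted p = 0.234), and the WT arrays were nearly identical.

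Ndufs3, a core subunit without a cluster, read 8.61, 8.68 and 8.59 in KO against 8.78, 8.81 and 8.81 in WT. The groups did not overlap, at a difference of -0.17 (SE 0.08, adjusted p = 0.408). Another probe set of the gene gave -0.17 as well. Ndufv2, which carries a cluster beside the flavin, read 8.52, 8.28 and 8.56 in KO against 8.16, 8.02 and 8.47 in WT, so the groups overlapped (difference 0.23, SE 0.13, adjusted p = 0.531). Its difference was 0.14 without WT replicate 2 and 0.36 without WT replicate 3. Ndufv1, which binds NADH and the flavin, differed by 0.02 (95% interval -0.18 to 0.22), and Ndufs1, the largest iron-sulphur subunit, by -0.05 (95% interval -0.30 to 0.19).

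Among the 28 accessory subunits of complex I, which surround the core and are needed for its assembly and stability, 17 differences were positive and 11 negative. Ndufv3, a small subunit beside the NADH site, had 6.50, 6.91 and 6.46 in KO against 6.88, 7.11 and 7.14 in WT. KO replicate 2 overlapped with WT replicate 1, and the difference was -0.42 (SE 0.13, adjusted p = 0.214). Ndufa7 read 5.96, 5.79 and 5.68 in KO against 5.43, 5.66 and 4.98 in WT. The groups just failed to touch, and the difference of 0.46 (SE 0.17, adjusted p = 0.281) leaned on WT replicate 3, without which it was 0.27. Ndufs5 had 7.35, 7.56 and 7.72 in KO against 7.04, 7.47 and 7.01 in WT, where WT replicate 2 lay within the KO values (difference 0.37, SE 0.15, adjusted p = 0.325). Ndufa2, also an accessory subunit, did not overlap between groups either, at a difference of -0.11 (SE 0.08, adjusted p = 0.676). The other 24 accessory members lay between -0.12 (Ndufa6) and 0.24 (Ndufa11, or 0.04 without WT replicate 3), with adjusted p from 0.557 to 0.995. A second probe set of Ndufa11 gave a difference of 0.10.

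Complex II, succinate dehydrogenase, which also serves the tricarboxylic acid cycle, was represented by all 4 of its subunits. Sdha, the flavoprotein that binds succinate, read 9.49, 9.43 and 9.47 in KO against 9.68, 9.54 and 9.79 in WT. Each KO value was below each WT value, with a difference of -0.20 (SE 0.09, adjusted p = 0.398). Its partners did not share that sign. Sdhb, the iron-sulphur subunit, differed by 0.08 (95% interval -0.14 to 0.30), and the membrane anchors Sdhc and Sdhd by 0.04 each, with intervals of -0.18 to 0.25 and -0.18 to 0.26.

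Complex III, the cytochrome bc1 complex, had 8 members (lowest adjusted p = 0.463 by limma). None of the 8 was at an unadjusted p under 0.05, against 12.7% of all genes. None was without overlap between groups, against 17.2% of all genes. Uqcr10, a small subunit, read 7.39, 7.10 and 7.14 in KO against 6.93, 7.18 and 6.65 in WT. The value of WT replicate 2 fell inside the KO range, and the difference was 0.29 (SE 0.14), or 0.15 without WT replicate 3. Uqcrfs1, the Rieske iron-sulphur protein, differed by 0.15 (SE 0.12), and by 0.08 to 0.24 with 1 array left out (lowest without WT replicate 2, highest without KO replicate 2). The core proteins Uqcrc1 and Uqcrc2 differed by 0.00 (95% interval -0.26 to 0.27) and 0.02 (95% interval -0.17 to 0.21).

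Complex IV, cytochrome c oxidase, contributed 19 members, and 12 of their differences were positive. Cox7b, a small subunit encoded on the X chromosome, had the lowest p of all 93. It read 8.82, 8.58 and 8.68 in KO against 8.37, 8.42 and 8.36 in WT. All KO values were higher, at 1.24-fold (log2 difference 0.31, SE 0.09, 95% interval 0.11 to 0.51, adjusted p = 0.170). Its second probe set had 7.70, 7.56 and 7.45 in KO against 6.99, 7.25 and 7.08 in WT, a difference of 0.46 with the same order of groups (adjusted p = 0.229 in a fit of every probe set). Ndufa4, named for complex I but a subunit of complex IV, read 9.86, 9.99 and 10.01 in KO against 9.68, 9.65 and 9.78 in WT, again without overlap (difference 0.25, SE 0.09, adjusted p = 0.250). Cox6b1, which faces cytochrome c, read 9.54, 9.25 and 9.25 in KO against 9.01, 9.33 and 8.94 in WT, with overlap at WT replicate 2 (difference 0.25, SE 0.13, or 0.155 without KO replicate 1). Cox5a went the other way without overlap, by -0.09 (SE 0.08, adjusted p = 0.751).

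Several complex IV subunits exist as a widely expressed form and a form restricted to certain tissues. The 8 restricted forms, Cox4i2 (lung and hypoxia), Cox6a2, Cox7a1 and Cox8b (heart and muscle), Cox6b2, Cox7b2 and Cox8c (testis) and the hypoxia-induced Ndufa4l2, all stayed less than 1 log2 unit above the array median on every array, where, with no detection calls, a low level cannot be told from background. The 11 widely expressed members, Cox4i1, Cox6a1, Cox6b1, Cox7a2 and Cox8a among them, lay above the upper quartile on all 6 arrays. Cox4i1 differed by -0.08 (SE 0.10), Cox6a1 by -0.00 (SE 0.10), Cox7a2 by -0.01 (SE 0.08), Cox8a by 0.09 (SE 0.09) and Cox7a2l by 0.00 (SE 0.12). Cox4i2, at 3.83, 3.88 and 3.77 in KO against 3.68, 3.71 and 3.68 in WT, did not overlap between genotypes (difference 0.14, SE 0.08, adjusted p = 0.548), and neither did Cox7a1 (0.12) nor Cox8b (-0.06). Ndufa4l2 averaged 3.64 ± 0.31 in KO and 3.62 ± 0.18 in WT (SD, n = 3 each), and its groups overlapped.

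Complex V, the ATP synthase, had 17 members, and the 95% interval lay between -0.5 and 0.5 for each of them. In the catalytic head, Atp5b, the catalytic beta subunit, read 11.42, 11.39 and 11.53 in KO against 11.43, 11.36 and 11.45 in WT, and Atp5a1, the alpha subunit, 10.95, 10.93 and 11.01 in KO against 10.96, 10.93 and 11.09 in WT. Both pairs of groups overlapped, with differences of 0.03 (SE 0.08) and -0.03 (SE 0.08). The rotor ring is made of a c subunit that 3 genes encode as the same mature protein. Atp5g1 read 7.80, 7.73 and 7.91 in KO against 7.60, 7.66 and 7.52 in WT, without overlap (difference 0.22, SE 0.09, adjusted p = 0.330). Atp5g2 and Atp5g3 differed by -0.01 (SE 0.08) and 0.06 (SE 0.08).

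The other membrane subunits of complex V had 4 positive differences and 1 negative, and the 4 subunits of the peripheral stalk 2 of each sign. Atp5j2, the f subunit, read 9.55, 9.35 and 9.49 in KO against 9.21, 9.38 and 9.06 in WT. WT replicate 2 overlapped the KO values (difference 0.25, SE 0.11, adjusted p = 0.383). Atp5l, the g subunit, had 6 probe sets, all with positive differences, 0.19 (SE 0.11) in the one used, or 0.11 without WT replicate 3. In the stalk, Atp5h read 9.63, 9.74 and 9.75 in KO against 9.81, 9.86 and 9.87 in WT. The groups were apart at a difference of -0.14 (SE 0.08, adjusted p = 0.550), and its 2 other probe sets both gave -0.17. Atp5pb, the b subunit of the stalk, differed by -0.15 (SE 0.10), or -0.08 without KO replicate 1, while its other members Atp5j and Atp5o differed by 0.04 and 0.05.

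**Figure D2:**
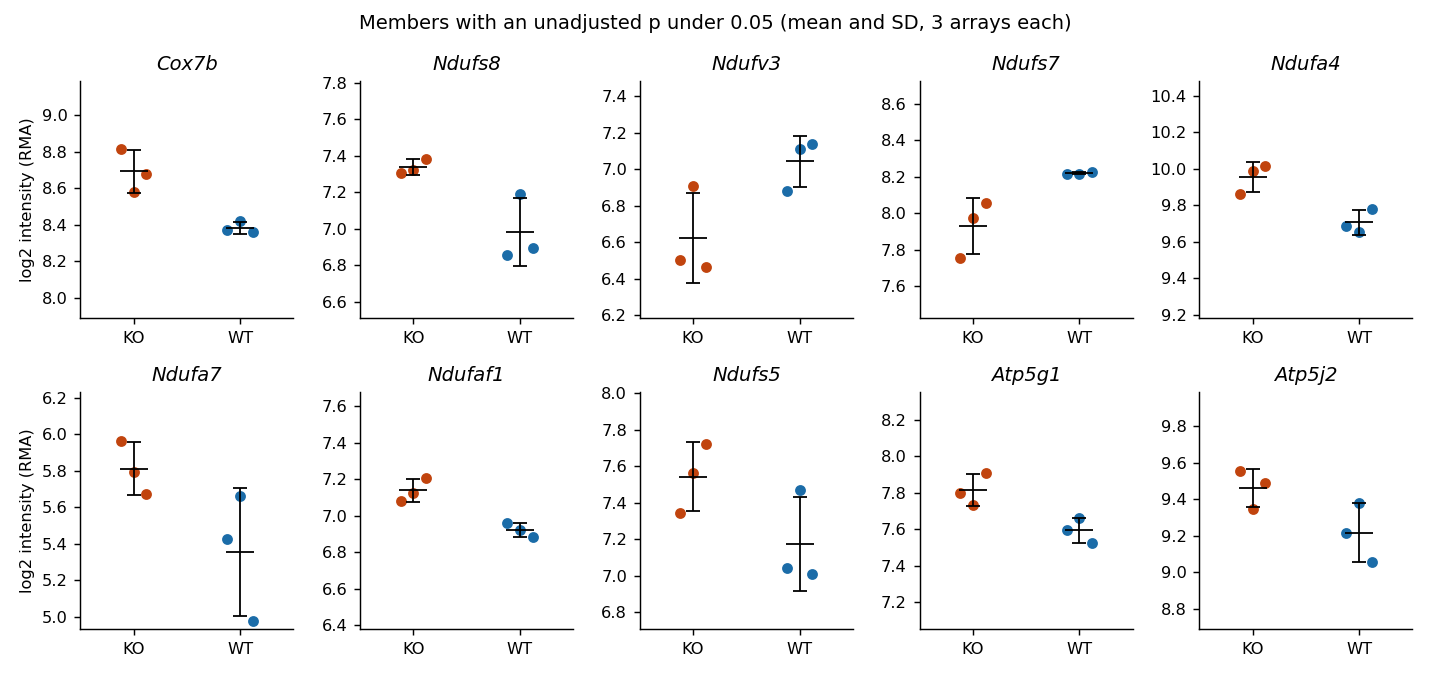
Log2 intensity (y axis, each panel spanning the same width) of the 10 members with an unadjusted p under 0.05, with dots for the 3 KO and 3 WT arrays and bars for mean and SD. The groups are apart for Cox7b, Ndufs8, Ndufs7, Ndufa4, Ndufa7, Ndufaf1 and Atp5g1 and overlap for Ndufv3, Ndufs5 and Atp5j2.

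The 11 assembly factors, which help to build complexes I and II and are not part of the finished enzymes, had a median difference of -0.01. Ndufaf1, which acts on complex I intermediates, read 7.08, 7.13 and 7.21 in KO against 6.96, 6.92 and 6.88 in WT. Every KO value was higher (difference 0.22, SE 0.08, adjusted p = 0.289). Ndufaf7, a methyltransferase acting on complex I, differed the other way, also without overlap, by -0.19 (SE 0.09, adjusted p = 0.433). Sdhaf3 had the widest spread of all members, at 4.10, 4.13 and 4.55 in KO against 5.18, 4.03 and 4.45 in WT. Its single high value was WT replicate 1, and its difference of -0.29 (SE 0.26) became 0.02 without that array. Ndufaf5, Ndufaf6 and Sdhaf4 stayed less than 1 log2 unit above the array median on every array, and the differences of the other members (Ndufaf2, Ndufaf3, Ndufaf4, Sdhaf1 and Sdhaf2) lay between -0.18 (Ndufaf2, or -0.06 without KO replicate 1) and 0.09 (Sdhaf2).

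Array by array, the members differed as much within a genotype as between genotypes. Relative to the WT mean of each gene, the median of all 93 members stood at -0.00, -0.03 and 0.08 in KO replicates 1, 2 and 3, against -0.02, 0.02 and 0.01 in WT replicates 1, 2 and 3. KO replicate 1, the array low in DNA replication genes, was thus near the WT mean here. KO replicate 3 was the highest of the 6 arrays for 30 members (32.3%), against 14.9% of all genes, and the lowest for 6 (6.45%), against 13.6%. Its median was 0.11 in complex I, 0.11 in complex II, 0.07 in complex III, 0.08 in complex IV and 0.08 in complex V, and 0.01 for the assembly factors. Over all 5132 genes above the upper quartile on every array, which include 73 of the 93 members, KO replicate 3 and WT replicate 3 both stood at 0.06, while WT replicate 3 stood at 0.01 over the members. Complex IV was the one complex in which KO replicate 1 was higher than KO replicate 3, at a median of 0.10. That order came from its 8 restricted forms near the array median, at 0.17 in KO replicate 1 and -0.02 in KO replicate 3. In its 11 widely expressed members the medians were 0.06 and 0.12, the order of the other complexes.

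The SD within genotypes had a median of 0.11 over the 93 members. The size of the differences, which are between means of 3 arrays, had a median of 0.08. Spread among the WT cultures ran in opposite directions in different subunits. The range over the 3 WT arrays exceeded 0.3 for 27 members and that over the 3 KO arrays for 16. WT replicate 2 was above WT replicate 3 by more than 0.3 for 14 members, led by the accessory subunits Ndufa11 (0.81), Uqcr11 (0.75), Ndufa7 (0.69), Uqcrq (0.57) and Uqcr10 (0.53). The gap was narrower in the second probe set of Ndufa11, at 7.09 in WT replicate 2 and 6.78 in WT replicate 3. In that of Uqcr11 the values were 6.49 and 5.70. WT replicate 3 was above WT replicate 2 by more than 0.3 for 8 members, among them Ndufv2, Ndufc2, Uqcrb and Uqcrfs1. The basophil protease genes also differed between these WT arrays: Mcpt8 read 5.64, 6.18 and 7.58 in KO against 7.56, 5.23 and 7.26 in WT, and Prss34 3.99, 4.12 and 4.65 in KO against 5.10, 4.11 and 5.61 in WT. Their part in the spread of the respiratory chain genes was not tested.

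Of the members, 18 had more than 1 probe set, and of their 26 further probe sets 20 had the sign of the one used. The widest disagreement was Uqcr11, at -0.13 and 0.19. A further 6 probe sets carried the symbol Cox7c, Ndufb4 or Ndufs5 together with that of a related gene and were left out, with differences between -0.09 and 0.13. Of these genes Ndufs5 was a member, through another probe set. Subunit genes of this kind have many processed copies in the genome, so probes may read more than 1 locus, and the rows of 1 gene are not independent.

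Genes that work beside the respiratory chain were described from lists of known genes, and few passed. The shares of these lists at an unadjusted p under 0.05 are set against 12.7% of all genes. Among genes above the upper quartile on every array that share was 23.8%. Cycs, the electron carrier between complexes III and IV, averaged 9.01 ± 0.01 in KO and 8.79 ± 0.02 in WT (SD, n = 3 each). The groups were apart, at a difference of 0.22 (SE 0.08, adjusted p = 0.245), and the mean of its 3 probe sets gave 0.14 (adjusted p = 0.603). Of 13 genes of cytochrome c and coenzyme Q synthesis 0 rose and 0 fell by limma (3, or 23.1%, at an unadjusted p under 0.05, against 12.7% of all genes), and the related Coq10a and Coq10b differed by -0.34 (SE 0.10) and 0.25 (SE 0.08) without overlap. COX2 and ND3, the 2 subunits encoded in mitochondrial DNA that were measured, differed by 0.19 (SE 0.11) and 0.22 (SE 0.12). Both were highest in KO replicate 2, at 12.45 for COX2 and 11.12 for ND3, and without that array the differences were 0.09 and 0.11. Of 24 other assembly factors 0 passed (5, or 20.8%, at an unadjusted p under 0.05, against 12.7% of all genes). Atpaf1, a chaperone of the ATP synthase head, had the lowest p, with 6.15, 6.10 and 6.36 in KO against 6.55, 6.75 and 6.91 in WT. Its difference was -0.53 (SE 0.12, adjusted p = 0.0860), without overlap.

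Among 18 regulators of mitochondrial biogenesis 0 passed (5, or 27.8%, at an unadjusted p under 0.05, against 12.7% of all genes). Myc, a transcription factor with many mitochondrial targets, read 7.84, 7.29 and 7.97 in KO against 7.08, 6.81 and 7.04 in WT, apart by 0.72 (SE 0.17, adjusted p = 0.0984). It passed with a replicate block and without KO replicate 2. Pprc1, a coactivator of NRF1, differed by 0.39 (SE 0.11, adjusted p = 0.147) and the mitochondrial deacetylase gene Sirt3 by -0.45 (SE 0.11, adjusted p = 0.124), while Nrf1 itself differed by -0.09 (SE 0.09), Gabpa by 0.01 (SE 0.09), Tfam, the packaging protein of mitochondrial DNA, by -0.21 (SE 0.22; 0.03 without WT replicate 3) and Ppargc1a by -0.11 (SE 0.12). Of 46 genes of the large mitochondrial ribosomal subunit 0 passed, and 13 (28.3%) were at an unadjusted p under 0.05, 10 of them higher and 3 lower in KO, with a median of 0.08.

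In the tricarboxylic acid cycle 1 of 17 genes fell and 0 rose, where 0.316% of all genes fell. At an unadjusted p under 0.05 were 3 of the 17 (17.6%), against 12.7% of all genes. Idh2, the mitochondrial isocitrate dehydrogenase that makes NADPH, read 6.95, 7.10 and 7.25 in KO against 7.73, 7.70 and 7.84 in WT. It fell by 0.66 (SE 0.10, adjusted p = 0.0284), a call lost in 5 of the 6 fits without 1 array (all but that without KO replicate 3). Of 14 glycolysis and hypoxia genes 2 fell, Ddit4 by 0.68 (adjusted p = 0.0126) and Aldoc by 0.82 (adjusted p = 0.0280), 0 rose, where 0.316% of all genes fell. At an unadjusted p under 0.05 were 7 of the 14 (50%), all lower in KO, against 12.7% of all genes. Groups did not overlap for 8 (57.1%), against 17.2% of all genes. All 14 differences were negative, with a median of -0.24, against 53 positive of 93 and a median of 0.02 for the respiratory chain. The fall of Ddit4 was lost without any 1 of the WT arrays and that of Aldoc in each fit without 1 array except that without KO replicate 2. None of the 3 calls held when every probe set was tested. The difference between these lists was not tested, and both the negative differences of glycolysis genes and the level of DNA replication genes were known when the lists were drawn up.

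**Figure D3:**
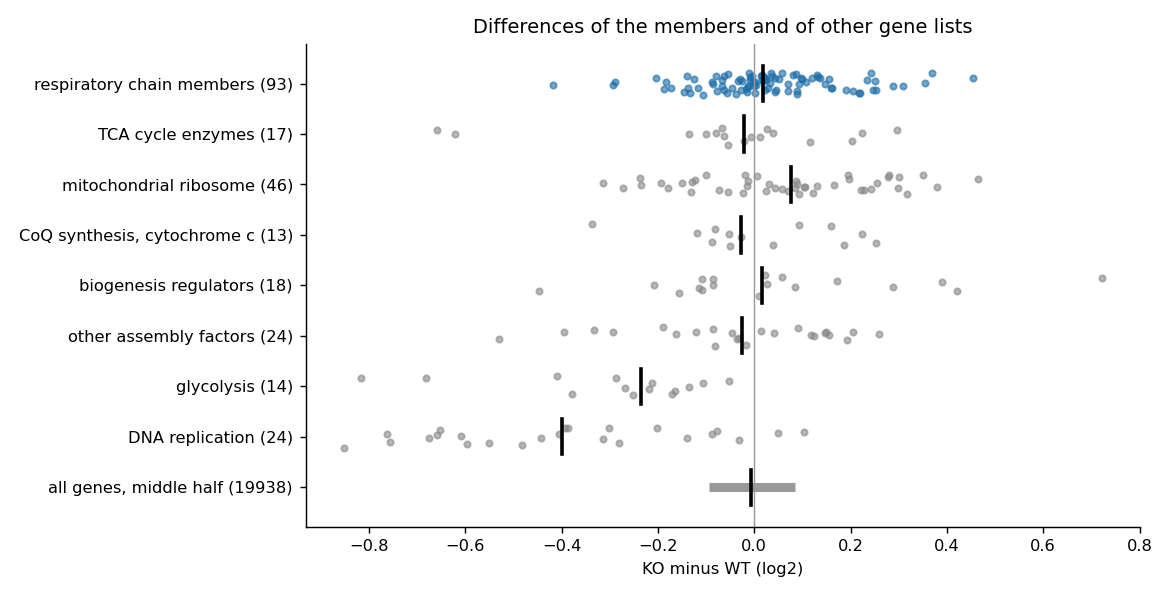
Difference between KO and WT (log2, x axis) of single genes (dots) and their median (bars) for the respiratory chain members and 7 other gene lists, with the number of genes in brackets, and the quartiles and median of all 19938 genes in the lowest line. The members centre on 0.02, the glycolysis genes on -0.24 and the DNA replication genes on -0.40.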

How the data were processed

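RNA from 6 cultures was measured on 1 Affymetrix array each (Mouse Gene 1.0 ST). The authors deposited log2 intensities. RMA is the method that the submitters' processing notes name for them, and the sources used here give neither its version nor a genome build nor detection calls. The method includes normalization between arrays, so a shift shared by all genes could not be seen. For arrays their number, here 3 per group, limits the precision.

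The table had 35557 probe sets, of which the platform annotation gave 21789 exactly 1 symbol. Each symbol kept the probe set with the highest mean (19938 genes). All 93 members had an Entrez ID in the RefSeq table of GRCm38.p6, and 0 symbols differed there. Genotype was fitted as the only term with limma 3.58.1 in R 4.3.3 (lmFit, eBayes), two-sided, with Benjamini-Hochberg adjustment over all 19938 genes at 0.05. Values are differences KO minus WT with moderated SE and 95% intervals. The fit was tested on simulated data with added differences larger than that of any member. It therefore does not show how often a difference of the members' size would pass. Members named by rule were those passing the test, the 3 with the lowest p in each complex, the 3 non-overlapping members with the largest difference in each direction, core subunits and isoform sets by role, and assembly factors; in other lists, up to 3 genes with the lowest p, Cycs, Tfam and Ppargc1a. Other genes named were chosen after their values were seen. Alternatives covered normalization, filtering, priors, weights, probe set choice, a replicate block and leaving out each array. The members, gene lists and tests were chosen with earlier results of these data known. Whether cultures came from different mice was not stated, so p-values measure the spread between these cultures.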

Additional observations from a re-analysis of the deposited data

How the results depend on the processing

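No member passed in any of the 14 alternative fits (limma), and the lowest adjusted p among members over these fits was 0.0834 (Ndufv3, without KO replicate 2). The number of genes changed between KO and WT over the whole array was 164, and 15 to 167 when 1 array was left out (103, 167 and 74 without KO replicates 1, 2 and 3, and 15, 43 and 27 without WT replicates 1, 2 and 3). It was 4 when every probe set was tested, a fit with 35557 tests. With a replicate block it was 199, of which 0 were members. Same-numbered KO and WT cultures deviated from their group means with correlations of -0.01, -0.06 and 0.24. Pairs with different numbers ran from -0.25 to 0.24. With 3 arrays per group these values cannot show whether same-numbered cultures shared a batch. The block changed no call on a member. Members at an unadjusted p under 0.05 numbered 10 (10.8%, against 12.7% of all genes). They numbered 6 without KO replicate 1 (6.45%, against 9.88%) and 5 without KO replicate 3 (5.38%, against 11.6%). Without WT replicate 2 they numbered 17 (18.3%, against 11.3%). Among the fits without 1 array, only there was the members' share above that of all genes. The median difference of the members, 0.02, lay between -0.01 and 0.04 without 1 array and was -0.01 after a repeated quantile normalization, so its sign is not fixed. Without 1 array the median ran from 0.0293 to 0.0922 in complex IV, all above its value of 0.0207 with all 6 arrays. The complex IV median was 0.0060 with each array centred on its median and 0.0079 after repeated quantile normalization. With array weights it was 0.0074, and with the filter on dim genes 0.0525. In the other complexes the median without 1 array ran from -0.0122 to 0.0634 in complex III and from -0.01 to 0.04 in complex I. It ran from -0.04 to 0.06 in complex II, from -0.01 to 0.07 in complex V and from -0.04 to 0.01 for assembly factors. Of all 93 members, 50 kept the sign of their difference in each of the 6 fits without 1 array. The filter on dim genes removed 8 members and so gave no value for these.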
